A study of Mus musculus with 4 samples.

Results

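Of the 22739 named genes measured in these libraries, 8 were followed here: Tdpoz3, Tdpoz4, Usp17la, Tmem92, Zfp352, Arg2, Eif1a and Dux. They were chosen by gene name, as genes of the totipotent-like state of embryonic stem (ES) cells other than the Zscan4 genes, and every member had a row in the deposited tables. Gene expression was measured by sequencing of poly(A)-selected RNA in CCE cells, a mouse ES cell line of strain 129SV cultured on gelatin-coated dishes, with 15% serum and the cytokine LIF. The control libraries came from CCE cells given a short hairpin RNA against luciferase (shLuci), a firefly gene that mouse cells lack, and the others from CCE cells given one against Tex10 (shTex10). Each group had 2 libraries, described by the submitters as biological replicates, of 1 cell line. The labels used here name no age, sort or time of harvest. TEX10 is a nuclear protein, and the series title places it in the control of super-enhancers and pluripotency. The comparison asks which transcripts differ in level when Tex10 is depleted.

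In a serum culture of mouse ES cells, a small and changing fraction of cells enters a state that resembles the embryo at the 2-cell stage, when the embryo's own genome is first transcribed. Such cells transcribe the MERVL endogenous retrovirus and genes placed near it, and the double homeobox factor DUX is a known activator of both. Many genes of the state belong to multicopy families on a single chromosome, and several are silent in most adult tissues. Eif1a and Arg2 differ in this respect, since Eif1a encodes a general translation factor and Arg2 a mitochondrial enzyme that are used in many cell types. The deposited values are FPKM, in which fragments are divided by transcript length and by library depth, so levels can be set side by side between genes.

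The sequences just before the annotated start sites are shown first. They lie outside the annotated transcripts, so bases shared there do not measure how far the reads can be told apart. Sequence shared between transcripts is given separately below. RefSeq (build GRCm38.p6) gave a promoter for 3 of the 8 genes, Tdpoz4, Zfp352 and Usp17la, all on the + strand. The 250 bases before each start are written 5′ to 3′, and positions below count from the start.
Tdpoz4, chr3:93796148-93796397: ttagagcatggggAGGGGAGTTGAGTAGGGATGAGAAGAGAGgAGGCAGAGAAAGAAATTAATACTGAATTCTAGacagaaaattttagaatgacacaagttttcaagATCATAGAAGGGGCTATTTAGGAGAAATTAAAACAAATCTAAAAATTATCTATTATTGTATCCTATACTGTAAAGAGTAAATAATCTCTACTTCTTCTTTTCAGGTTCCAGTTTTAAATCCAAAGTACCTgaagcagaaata
Zfp352, chr4:90218570-90218819: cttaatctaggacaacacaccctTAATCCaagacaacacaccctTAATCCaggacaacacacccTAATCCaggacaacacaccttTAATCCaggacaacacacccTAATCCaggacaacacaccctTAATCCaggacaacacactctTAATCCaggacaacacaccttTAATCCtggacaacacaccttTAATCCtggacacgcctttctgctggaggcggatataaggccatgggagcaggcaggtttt
Usp17la, chr7:104856766-104857015: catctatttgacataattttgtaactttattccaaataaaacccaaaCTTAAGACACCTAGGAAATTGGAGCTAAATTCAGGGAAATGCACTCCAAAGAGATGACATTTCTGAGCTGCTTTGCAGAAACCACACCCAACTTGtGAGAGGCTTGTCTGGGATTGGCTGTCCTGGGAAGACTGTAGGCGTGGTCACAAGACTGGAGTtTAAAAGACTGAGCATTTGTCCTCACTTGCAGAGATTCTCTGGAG
In the Tdpoz4 and Usp17la sequences, capitals mark stretches of at least 25 bases that also occur in the promoter of another family member. In Tdpoz4, 191 of the 250 bases were shared with a promoter of Tdpoz8 (listed in the tables as Gm4858). In Usp17la, 201 bases were shared, of which 163 occurred before Usp17lc, 148 before Usp17ld and 105 before Usp17lb. In Zfp352, capitals mark the letters TAATCC, the core bound by OTX-type homeodomains. They occurred 9 times, at positions -227 to -61 from the start and 20 to 21 bases apart, as parts of a tandem repeat. Among 32851 RefSeq promoters of this length, 6.25% held TAATCC at least once on either strand and only this one held it 9 times or more. The motif was chosen after the sequence had been read, so the count is a description.

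Other letters were searched on both strands of the same windows. AGATAA, bound by zinc finger factors of the GATA type, occurred once in Tdpoz4, at position -97, and in 9.99% of all promoters. CCAAT occurred at positions -186 and -91 in Usp17la, and 10.1% of promoters held it at least that often, while 33.8% held it at least once. TATAAA occurred in none of the 3 and in 12.4% of all promoters. No motif overlapped another in these windows, and a match is no evidence of binding. Tdpoz3, Tmem92, Arg2, Eif1a and Dux are named only.

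Tex10 itself stood at 77.3 and 82.1 FPKM in the shLuci libraries and at 11.6 and 13.4 FPKM in the shTex10 libraries (log2 change of FPKM + 1 of -2.58, SE 0.10; limma, adjusted p = 0.000143). FPKM tables carry no read totals. From the value that 1 read takes in unnamed rows of 350 to 1000 bp, depth was roughly estimated, relative to shLuci replicate 1, at 94.0% in shLuci replicate 2 and at 83.3% and 91.9% in the shTex10 libraries. At most 39.3% of row lengths lay within 1% of a library's estimate. Named rows summed to 613641.9 and 632066.5 FPKM in shLuci and to 525877.9 and 537691.6 FPKM in shTex10. Unnamed rows took 56.3% of all FPKM in shLuci replicate 1 and 68.8% to 71.6% in the other libraries. The 8 ES identity genes checked, among them Pou5f1, Nanog and Sox2, were expressed in every library and summed to 5166 and 5593 FPKM in shLuci and 4216 and 4588 FPKM in shTex10.

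Of the 8 genes, 7 rose in shTex10 and Eif1a did not pass the test. Tdpoz4 and Tdpoz3 had the largest differences, 11.0-fold and 8.57-fold in mean FPKM, and Arg2 had the smallest of the 7, at 3.25-fold. Genes with a mean of at least 1 FPKM were tested, 11883 in all, by limma on log2(FPKM + 1) with Benjamini-Hochberg adjustment over all of them. The 8 genes all passed this filter, and each also had a mean of at least 1 FPKM in shLuci alone. Over all genes tested 19.8% were called higher and 31.8% lower, 51.6% together, so a call by itself sets a gene little apart. Size separates more: 5 of the 8 genes changed by at least 2 on the log2 scale, as did 0.985% of all genes tested. Of the 8 genes 7 were also called higher with a change of at least 1, against 5.98% of all genes. The 8 genes were chosen with earlier results of these data known, so these shares describe them and are no independent support. The median change was 2.14 over the 8 genes and -0.14 over all genes tested. The groups did not overlap in 7 of the 8 genes, with shTex10 higher each time, as in 28.3% of all genes tested, while 48.1% of all genes had both shTex10 libraries lower. Scaling changed the background more than the 8 genes: 7 of 8 were called higher with named genes rescaled to the same sum (43.4% of all genes called, 27.4% higher), with quantile normalization (44.7% called, 20.2% higher, 24.5% lower) and with all rows rescaled (7.55% called, 5.55% higher). With 2 libraries against 2 the smallest p an exact two-sided permutation test of 1 gene can give is 0.3333, so the adjusted p-values rest on the spread shared across genes. In bulk RNA, more cells in the state and more RNA per cell cannot be told apart.

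**Figure D1:**
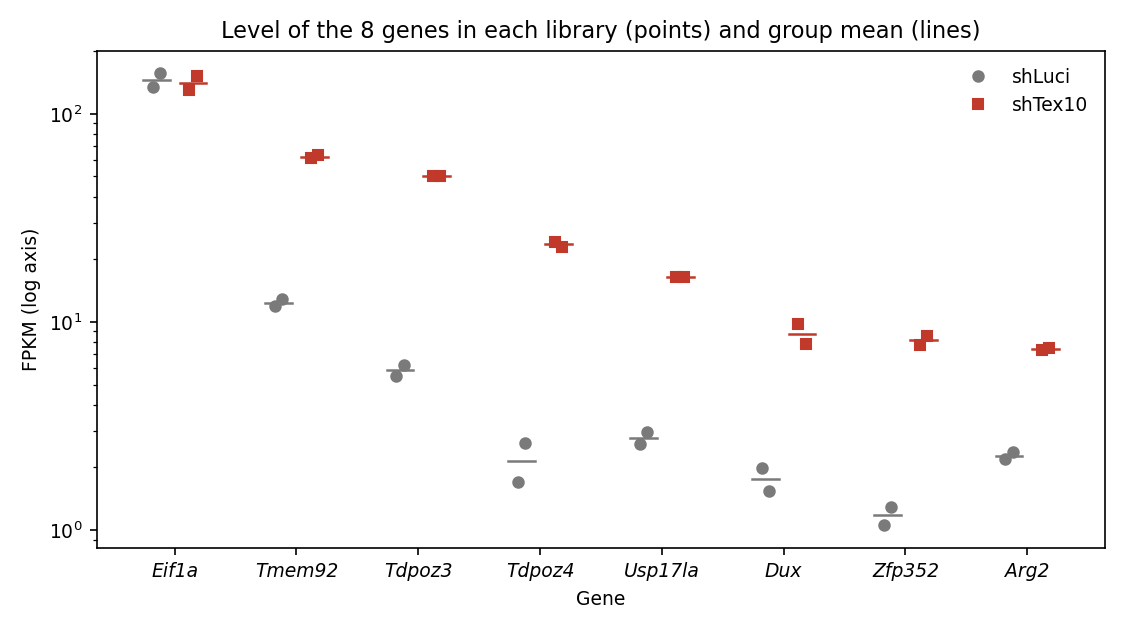
FPKM on a log axis for the 8 genes in each library, with shLuci as grey circles, shTex10 as red squares and lines at group means (2 libraries each). Eif1a lies between 129.6 and 156.6 FPKM with the groups overlapping, and the other 7 genes are higher in shTex10 with no overlap.

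**Figure D2:**
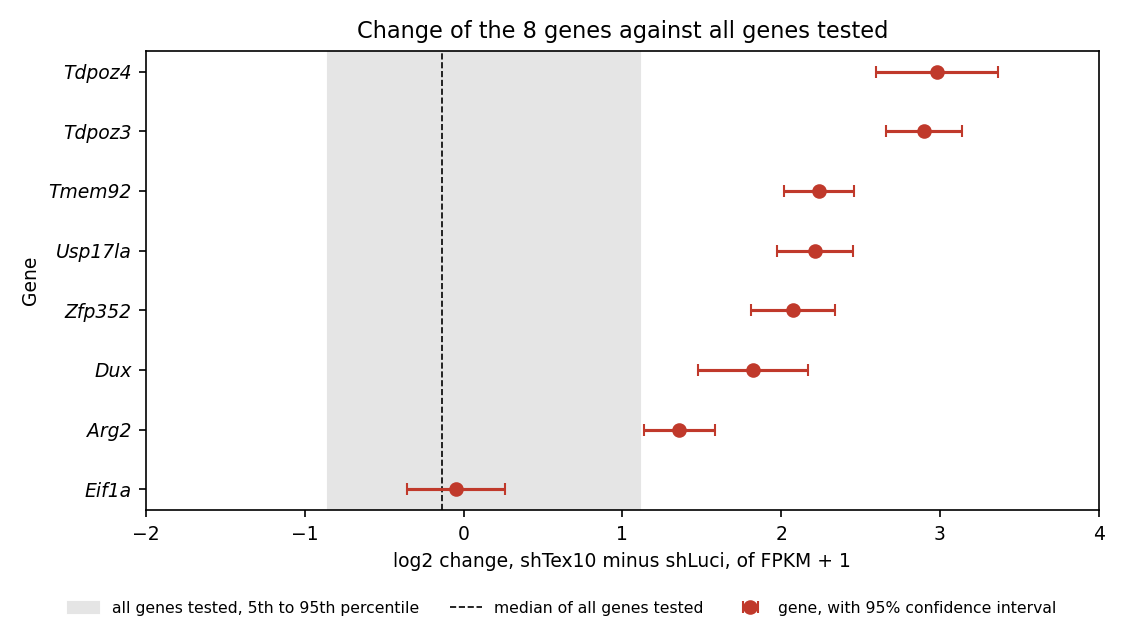
Log2 change of FPKM + 1 (shTex10 minus shLuci) with 95% confidence intervals for the 8 genes. The grey band is the 5th to 95th percentile of the 11883 genes tested and the dashed line their median of -0.14. The point for Arg2 at 1.36 and the 6 points above it in the plot lie to the right of the band, and Eif1a at -0.05 lies inside it.

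Dux encodes the transcription factor that activates much of the 2-cell programme. The row named Dux lies on mm9 chr10:57691116-57695442. Coordinates and distances, from here on, are those of the locus deposited for each row. Rows can share a locus, so it need not give the position of a single gene. Dux stood at 1.98 and 1.55 FPKM in shLuci and at 9.76 and 7.82 FPKM in shTex10. The 2 groups did not overlap, and the spread within shTex10 was the widest of the 7 genes that rose relative to its mean. Its mean went from 1.76 ± 0.308 to 8.79 ± 1.37 FPKM (SD, n = 2), a 4.98-fold difference, with single pairs of libraries between 3.94-fold and 6.31-fold. The log2 change was 1.82 (SE 0.14, 95% interval 1.48 to 2.17; limma, adjusted p = 0.000477). Dux lies in a tandem array of near-identical copies in the mouse genome, so reads in this row may come from more than 1 copy. The row was identified by its name alone, and no GENCODE M21 transcript carried that symbol, so the sequence it shares with other genes was not measured. The 4 unnamed rows within 100 kb were all higher in both shTex10 libraries than in both shLuci libraries. Of all genes tested 28.3% were so placed, and the share over all unnamed rows was not measured. The nearest of the 4, 278 bases away, had 0.218 and 0.347 FPKM in shLuci and 2.48 and 1.77 FPKM in shTex10. Gm4981, a predicted gene 2153 bases away that was under the filter, had 0.209 and 0.251 FPKM in shLuci and 0.942 and 0.935 FPKM in shTex10. Farther off, Gcc2, which encodes a golgin, had a change of 0.06 (limma, adjusted p = 0.756), and Lims1, an adaptor of focal adhesions, rose by 0.33 (adjusted p of 0.191 without shLuci replicate 1, 0.0612 without shLuci replicate 2 and 0.212 without shTex10 replicate 2).

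Tdpoz3 and Tdpoz4 encode proteins with a TRAF (MATH) domain and a BTB/POZ domain, the arrangement of the ubiquitin ligase adaptor SPOP, and lie side by side on chromosome 3. Tdpoz3 (mm9 chr3:93624268-93633154) stood at 5.48 and 6.22 FPKM in shLuci and at 50.0 and 50.3 FPKM in shTex10. The shTex10 libraries differed from each other by less than the shLuci libraries did. The means were 5.85 ± 0.523 and 50.1 ± 0.176 FPKM (SD, n = 2), and the log2 change was 2.90 (SE 0.10, 95% interval 2.66 to 3.14; limma, adjusted p = 0.000140), rank 14 of 11883.

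Tdpoz4 (mm9 chr3:93577809-93601885) stood at 1.69 and 2.61 FPKM in shLuci and at 24.3 and 23.0 FPKM in shTex10. Its groups were also far apart, and the lower shLuci library was replicate 1. The means were 2.15 ± 0.646 and 23.6 ± 0.944 FPKM (SD, n = 2), 11.0-fold apart, with single pairs between 8.80-fold and 14.3-fold. The log2 change was 2.98 (SE 0.15, 95% interval 2.60 to 3.36; limma, adjusted p = 0.000203), rank 8 of 11883. The intervals of Tdpoz3 and Tdpoz4 overlap widely.

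The Tdpoz transcripts share sequence, which limits how far single genes can be separated. In the GENCODE M21 transcripts (GRCm38), the Tdpoz3 and Tdpoz4 transcripts were 78.3% identical over their alignment. Of all stretches of 100 bases in Tdpoz3, as long as the reads, 46.7% occurred letter for letter in another gene, Gm4982, and in Tdpoz4 11.6% did, in Gm4858 and Gm5541. Values of these single genes are therefore uncertain. Summed over the 5 Tdpoz genes with a row under that name, the family stood at 7.66 and 9.27 FPKM in shLuci and at 78.1 FPKM in both shTex10 libraries, a 9.22-fold difference (log2 change 3.07, SE 0.11; limma refitted with family sums, adjusted p = 0.000155). Related transcripts with rows of their own were read beside them, and the set of relatives was chosen after the alignments had been seen. Gm10696 and Gm4858 rose by 2.93 and 2.18 on the log2 scale. Gm9125 and Tdpoz2 had means of 0.580 and 0.426 FPKM in shLuci and of 6.45 and 3.91 FPKM in shTex10, so they passed the filter only through shTex10 and their calls are no support. Tdpoz5 and Gm10697 are listed at 0 in every library. The deposited loci of 12 unnamed rows reached within 100 kb of Tdpoz3. All 12 were higher in both shTex10 libraries than in both shLuci libraries. Several of them share a locus, mm9 chr3:93712151-94073488, with Gm10696 and Gm9125. That locus extends beyond 100 kb from Tdpoz3, so these rows need not lie within that distance. Of the 5 unnamed rows within 100 kb of Tdpoz4, which partly repeat those of Tdpoz3, 4 were higher in shTex10 and 1 was lower. Some of these rows lay near 0, as did a row of the shared locus with 0 FPKM in both shLuci libraries. That row had 0.234 and 0.133 FPKM in shTex10. Of all genes tested 28.3% had both shTex10 libraries higher, and the share over all unnamed rows was not measured.

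Usp17la belongs to a family of ubiquitin-specific proteases, known as DUBs, that were first described as genes induced by cytokines. Usp17la (mm9 chr7:111999926-112011181) stood at 2.59 and 2.97 FPKM in shLuci and at 16.5 FPKM in both shTex10 libraries. The shTex10 libraries were nearly equal and far above the controls. The means were 2.78 ± 0.263 and 16.5 ± 0.00919 FPKM (SD, n = 2), 5.94-fold apart, and the log2 change was 2.21 (SE 0.10, 95% interval 1.97 to 2.45; limma, adjusted p = 0.000157). Its relatives were 90.2% to 94.7% identical to it, and 3.83% of its 100-base stretches occurred elsewhere letter for letter. The 4 relatives tested all rose, Usp17lb by 2.50, Usp17lc by 2.28, Usp17le by 2.15 and Usp17ld by 2.00. By comparison, 19.8% of all genes tested were called higher. Copies so alike may share reads, so these rows need not be separate observations. Usp17lb had 5.57 and 5.35 FPKM in shLuci and 34.9 and 36.3 FPKM in shTex10, and Usp17le 6.90 and 7.04 FPKM and 35.4 and 33.3 FPKM. The sum of the 5 Usp17l genes went from 19.1 and 19.9 FPKM to 114 and 112 FPKM, a 5.81-fold difference (log2 change 2.48, SE 0.08). Outside the family, 6 olfactory receptor rows within 100 kb of Usp17la are listed at 0. Of 2 unnamed rows there, none was higher in both shTex10 libraries and 1 was lower in both, as were 48.1% of all genes tested.

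Zfp352 encodes a zinc finger protein of the early embryo, and its promoter carries the TAATCC repeat printed above. Zfp352 (mm9 chr4:89885510-89893432) was the least abundant of the 8 genes in the controls, at 1.05 and 1.29 FPKM, and stood at 7.72 and 8.58 FPKM in shTex10. The groups were well apart. The means were 1.17 ± 0.170 and 8.15 ± 0.607 FPKM (SD, n = 2), a 6.94-fold difference, and the log2 change was 2.07 (SE 0.11, 95% interval 1.81 to 2.34; limma, adjusted p = 0.000203). At such levels the added 1 in log2(FPKM + 1) understates the change. By the depth estimate, the lowest library rested on about 55.9 to 79.9 reads, depending on the transcript length assumed. Only 0.643% of the 100-base stretches of Zfp352 occurred letter for letter in another gene, Zfp353-ps. Zfp353-ps was 95.2% identical over 1650 aligned bases and had no row of its own. How far the value of Zfp352 depends on reads from that copy was not tested. No other row lay within 100 kb of Zfp352.

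**Figure D3:**
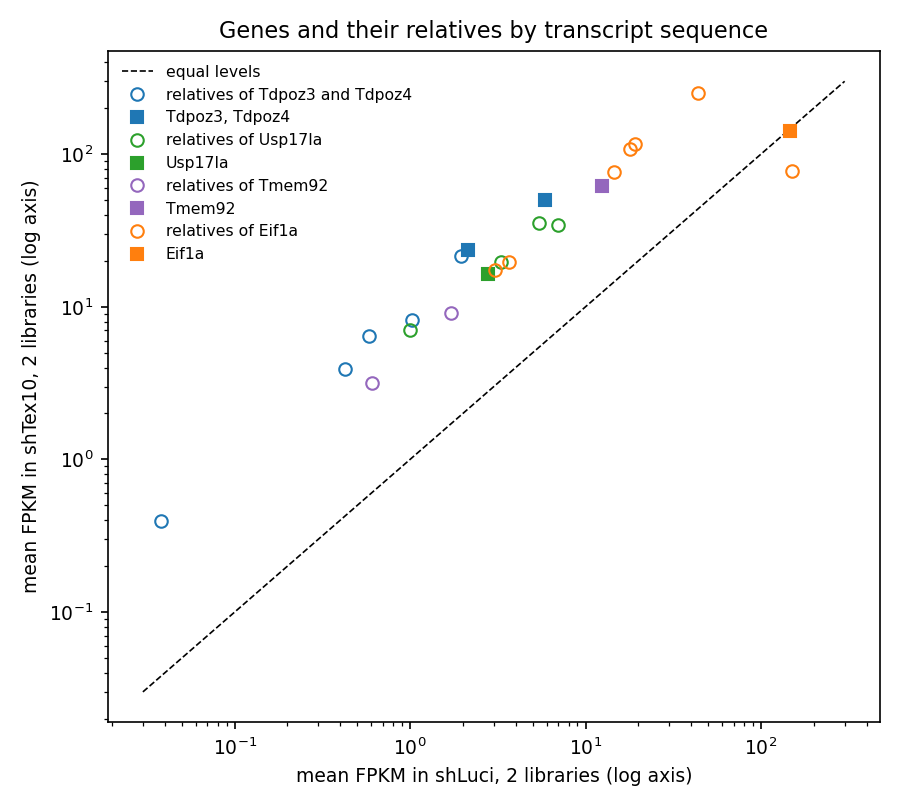
Mean FPKM in shLuci against mean FPKM in shTex10 (2 libraries each, log axes) for Tdpoz3, Tdpoz4, Usp17la, Tmem92 and Eif1a (squares) and the genes with related transcripts (open circles, same colour). The dashed line marks equal levels, and Eif1a, at 145.5 and 140.7 FPKM, and Eif1ax just below it are the only points that do not lie well above it.

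Tmem92 encodes a predicted single-pass membrane protein whose role is little known. Tmem92 (mm9 chr11:94638454-94726251) stood at 12.0 and 12.8 FPKM in shLuci and at 61.1 and 63.2 FPKM in shTex10. It was the most abundant of the 7 genes that rose, in both groups. The means were 12.4 ± 0.596 and 62.2 ± 1.46 FPKM (SD, n = 2), 5.01-fold apart, and the log2 change was 2.24 (SE 0.09, 95% interval 2.02 to 2.46; limma, adjusted p = 0.000143). None of its 100-base stretches occurred in another gene. The related predicted genes Gm11544, in the same locus, and Gm11545, 15958 bases away, had changes of 1.91 and 1.37 on the log2 scale. Gm11544 rose from 1.62 and 1.78 FPKM to 9.10 and 9.13 FPKM. Gm11545, with means of 0.607 FPKM in shLuci and 3.16 FPKM in shTex10, passed the filter only through shTex10. Farther off, Col1a1, a collagen of fibroblasts and bone, had a change of 0.65 (limma, adjusted p = 0.0607, and 0.0403 with named genes rescaled). Xylt2, an enzyme of proteoglycan synthesis, fell by 0.90 (limma, adjusted p = 0.00275, and 0.223 with all rows rescaled).

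Arg2 encodes mitochondrial arginase, which splits arginine into ornithine and urea. Arg2 (mm9 chr12:80231774-80273445) stood at 2.19 and 2.36 FPKM in shLuci and at 7.33 and 7.46 FPKM in shTex10. Within each group the libraries were close, and the groups did not overlap. The means were 2.27 ± 0.124 and 7.39 ± 0.0930 FPKM (SD, n = 2), and the log2 change was 1.36 (SE 0.09, 95% interval 1.13 to 1.58; limma, adjusted p = 0.000339), the smallest of the 7. Arg2 ranked 379 of 11883. Its row carries the same deposited locus as that of Vti1b, a vesicle SNARE gene. Whether their transcripts overlap was not measured and the handling of strand is not known here, so reads may not be assignable to 1 gene. Vti1b had 40.0 and 40.1 FPKM in shLuci and 35.9 and 39.3 FPKM in shTex10 (log2 change -0.09; limma, adjusted p = 0.434). Zfyve26, 59888 bases away, rose by 0.89 (adjusted p = 0.00132, and 0.261 with all rows rescaled), while Plekhh1 fell by 0.48 (adjusted p = 0.107 with named genes rescaled and 0.670 with all rows rescaled). Rdh11 fell by 0.31, with its call lost when any of the 4 libraries was left out (adjusted p of 0.0884 to 0.162). Pigh had a change of -0.28 that did not pass the test.

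**Figure D4:**
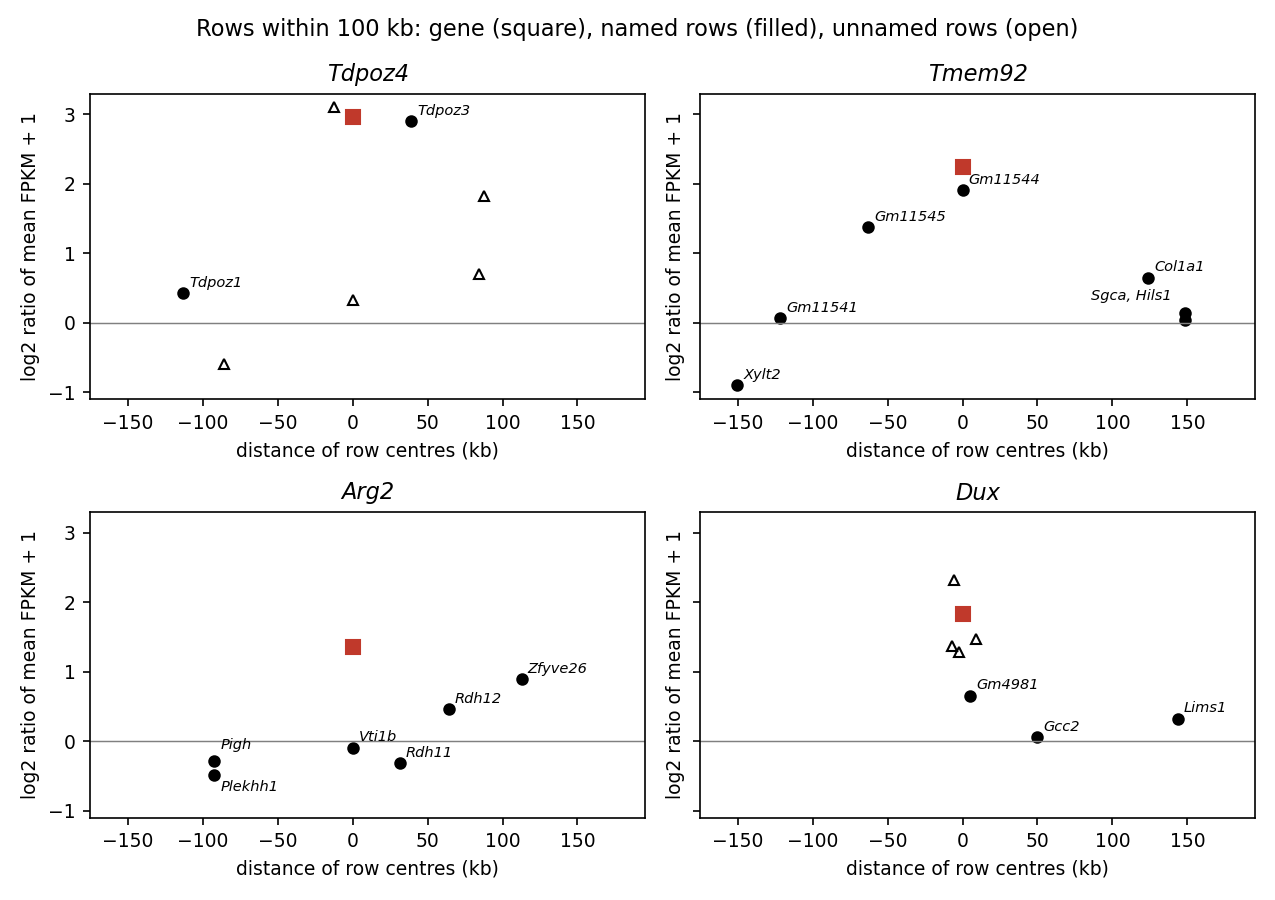
Log2 ratio of mean FPKM + 1 in shTex10 over shLuci for rows within 100 kb of Tdpoz4, Tmem92, Arg2 and Dux. Rows are plotted by the distance in kb between the centres of their deposited loci, which rows can share. Red squares are the genes themselves, filled circles named rows and open triangles unnamed rows. Around Dux and Tdpoz4 most unnamed rows lie above 0, while Vti1b, in the same locus as Arg2, lies at -0.09.

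A list of 23 genes of arginine, ornithine and polyamine metabolism, of which 16 were tested, was read beside Arg2. In it 3 genes rose, 9 fell and 4 did not pass the test, with a median log2 change of -0.38, where 19.8% of all genes tested were higher and 31.8% lower. Gatm, which rose, passed the filter only through shTex10. Slc7a3, a cationic amino acid transporter that takes up arginine, had 108 and 110 FPKM in shLuci and 24.3 and 24.6 FPKM in shTex10 and fell by 2.11. Srm and Sms, which make spermidine and spermine, fell by 0.99 and 0.95, and Odc1, which turns ornithine into putrescine, fell by 0.80. Ass1, Gatm and Sat1 were the 3 that rose (named after their values were seen), and the call of Ass1 was lost when any of the 4 libraries was left out (adjusted p of 0.126 to 0.190). With all rows rescaled to the same sum, only 1 of the 16 genes fell and 0 rose, where 2% of all genes were lower and 5.55% higher.

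Eif1a encodes eIF1A, which helps the small ribosomal subunit scan messenger RNA for the start codon. Eif1a (mm9 chr18:46757312-46799240) stood at 134.5 and 156.6 FPKM in shLuci and at 129.6 and 151.8 FPKM in shTex10. The groups overlapped, and in each the second replicate was the higher. The means were 145.5 ± 15.6 and 140.7 ± 15.7 FPKM (SD, n = 2), and the log2 change was -0.05 (SE 0.12, 95% interval -0.36 to 0.26; limma, adjusted p = 0.762). The interval does not include a rise as large as that of any of the other 7 genes. Eif1a was by far the most abundant of the 8 in both groups.

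Genes with transcripts related to Eif1a went another way. Eif1a-like copies are known as genes of 2-cell embryos and of Zscan4-positive ES cells, and the GENCODE transcripts held 20 genes related to Eif1a, of which 7 had a row. Of these 7, 6 rose, where 19.8% of all genes tested were called higher. Gm5662 stood at 41.5 and 45.5 FPKM in shLuci and at 225 and 277 FPKM in shTex10, a log2 change of 2.50, so its level passed that of Eif1a. Gm2022, Gm8300, Gm2016, BB287469 and Gm21319 rose by 2.54, 2.52, 2.32, 2.15 and 2.14. Eif1ax, the X-linked gene for the same factor, had 128 and 172 FPKM in shLuci and 66.9 and 87.8 FPKM in shTex10 and was the one that fell (log2 change -0.95, SE 0.19; limma, adjusted p = 0.00942). None of the 100-base stretches of Eif1a occurred in another gene, while the sequence that the 6 share with one another was not measured. Of 16 genes of the eIF1 family and the scanning machinery, Eif1ax among them, 0 rose, 11 fell and 5 did not pass the test, with a median of -0.46, against 31.8% of all genes called lower. Eif2s3x, a subunit of the factor that carries the initiator tRNA, fell by 0.65. Eif3b and Eif3a, subunits of the scaffold eIF3, fell by 0.64 and 0.51, and Eif4a1, the helicase that unwinds leaders, fell by 0.46. With all rows rescaled to the same sum 0 of the 16 fell, with named genes rescaled 6 did, and with quantile normalization 5 fell and 1 rose. The shares of all genes called lower were then 2%, 16% and 24.5%. Around Eif1a itself none of the 4 tested neighbours rose and 2 fell, Fem1c by 0.27 and Tmed7 by 0.31, both without a call when any of the 4 libraries was left out (adjusted p of 0.176 to 0.205 and 0.0626 to 0.249).

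The order of levels in FPKM changed between the groups. In shLuci it ran Eif1a, Tmem92, Tdpoz3, Usp17la, Arg2, Tdpoz4, Dux and Zfp352, and the libraries of Arg2 and Tdpoz4 and those of Tdpoz4 and Dux overlapped. In shTex10 it ran Eif1a, Tmem92, Tdpoz3, Tdpoz4, Usp17la, Dux, Zfp352 and Arg2, where Dux and Zfp352 overlapped. Arg2 thus stood at the fifth place in shLuci and at the last in shTex10, and Tdpoz4 moved above Usp17la.

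The genes whose pattern over the 4 libraries was most like the median of the 8 were Trim7, Cdkl1, Gm4858, Plk2, Dgka and Usp17le. Likeness was the Euclidean distance between centred log2(FPKM + 1) values, Zscan4 genes left out, and ran from 0.0549 for Trim7 to 0.108 for Usp17le. Trim7, a ubiquitin ligase, stood at 1.82 and 2.04 FPKM in shLuci and at 12.0 and 11.8 FPKM in shTex10. Plk2, a polo-like kinase, was far more abundant, with 34.5 and 39.3 FPKM in shLuci and 157 and 172 FPKM in shTex10. Dgka, a diacylglycerol kinase, went from 12.1 and 11.8 FPKM to 57.8 and 57.3 FPKM, and Cdkl1, a CDK-like kinase, from 0.706 and 0.767 FPKM to 6.50 and 7.23 FPKM. Cdkl1 had a mean of 0.737 FPKM in shLuci, so it passed the filter only through shTex10. Gm4858 and Usp17le share stretches of 100 bases with Tdpoz4 and Usp17la, so their likeness is not separate from these members. With 4 libraries in 2 groups such distances mainly rank genes by the size of the difference.

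Other genes of the 2-cell-like state were taken from a list of 66, of which 45 had a row and 28 were tested. Among the 28 were 23 that rose, 1 that fell and 4 without a call, where 19.8% of all genes tested were higher and 31.8% lower. Their median was 1.92 on the log2 scale. Part of the 28 passed the filter only through shTex10: 24 of the 28 had a mean of at least 1 FPKM in shLuci, and 19 of those rose. The list holds several of the Usp17l, Tdpoz and Eif1a relatives above, so it is not separate from them. Gm8994 stood at 23.1 and 21.3 FPKM in shLuci and at 131 FPKM in both shTex10 libraries, a change of 2.51. Sp110, a nuclear body protein, went from 4.07 and 4.21 FPKM to 27.1 and 24.2 FPKM, a change of 2.37. Sytl3, a synaptotagmin-like protein of vesicle transport, was the one that fell, by 0.47 (limma, adjusted p = 0.0154, and 0.0579 with named genes rescaled and 0.419 with all rows rescaled). Pramel6, Pramel7, Usp26 and Zfp600 did not pass the test, and 5 listed genes are at 0 in every library (these and Sytl3 were named after their values were seen). The 6 Zscan4 genes, telomere-associated zinc finger genes of the same state, all rose, with a median of 2.66, and their sum went from 72.6 and 82.1 FPKM to 538 and 581 FPKM, 7.24-fold.

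Known activators of the state moved in both directions. Among 14 tested genes there were 3 that rose, 5 that fell and 6 without a call, with a median of -0.19. Those counts are near the shares over all genes tested, 19.8% higher and 31.8% lower. Gata2, a GATA factor, rose by 1.10, while the checkpoint kinase Chek1, the nuclear receptor Nr5a2 and the SMAD inhibitor Smad7 fell by 0.83, 0.73 and 0.78. Dppa2 and Dppa4, which act upstream of Dux and were named after their values were seen, were abundant in both groups. Dppa2 stood at 107 and 120 FPKM in shLuci and 140 and 160 FPKM in shTex10 (log2 change 0.39; limma, adjusted p = 0.0288, and 0.126 without shLuci replicate 1 and 0.140 without shTex10 replicate 2). Dppa4 had a change of -0.02 (limma, adjusted p = 0.854). Rescaled to the same sum over all rows, 1 of the 14 rose and 0 fell, where 5.55% of all genes were higher and 2% lower.

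Among 34 tested repressors of the state or of MERVL, 20 fell, 1 rose and 13 had no call, with a median of -0.49. Over all genes tested 31.8% were lower, with a median of -0.14. Smchd1, a chromatin protein known to hold Dux silent, stood at 18.0 and 20.7 FPKM in shLuci and at 5.45 and 5.82 FPKM in shTex10 and fell by 1.61. Uhrf1, which keeps DNA methylation through replication, fell by 1.19, the chromatin assembly factor subunit Chaf1b by 1.05 and the deacetylase Hdac1 by 0.75. These counts depend on scaling, since 15 fell with named genes rescaled to the same sum, 14 with quantile normalization and 1 with all rows rescaled. The shares of all genes called lower were then 16%, 24.5% and 2%. Whether these genes have a part in the levels of the 8 was not tested.

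Markers of other cell types were read beside these results, and their part in them was not tested. Over all genes tested 19.8% were called higher and 31.8% lower. Of 10 trophectoderm markers 8 were tested and all 8 rose, with a median of 1.35, and their summed level went from 270 and 279 FPKM to 637 and 623 FPKM. Krt8, an epithelial keratin, made up much of that sum, with 132 FPKM in both shLuci libraries and 294 and 284 FPKM in shTex10. Ascl2, Cdh3 and Tfap2c rose by 2.02, 1.90 and 1.63, while the defining markers Cdx2 and Elf5 had means of 0.396 and 0.0358 FPKM in shLuci and of 1.46 and 0.0693 FPKM in shTex10. With all rows rescaled 5 of the 8 tested trophectoderm markers rose, against 5.55% of all genes. Of the 8 ES identity genes 5 fell, 3 did not pass the test and 0 rose. Tdgf1, Zfp42, Nanog and Pou5f1 fell by 0.85, 0.72, 0.66 and 0.64. With named genes rescaled 4 of the 8 fell, with quantile normalization 3, Pou5f1 not among them (adjusted p = 0.149), and with all rows rescaled 0. The shares of all genes called lower under these scalings were 16%, 24.5% and 2%. Of 9 germ cell genes with a row 8 were tested. Dppa3 and Taf7l rose by 1.26 and 1.32, and 5 had no call. Tex101 had a change of 0.66 and passed the filter only through shTex10, with means of 0.628 FPKM in shLuci and 1.56 FPKM in shTex10. Their summed level was 57.2 and 71.0 FPKM in shLuci and 83.9 and 99.4 FPKM in shTex10, and Mael had a change of -0.24. Of 8 primitive endoderm markers only 2 were tested. Lama1 fell by 1.59 and Dab2 rose by 0.91, and the 8 summed to 13.1 and 12.5 FPKM in shLuci and 8.44 and 8.58 FPKM in shTex10. Of 12 fibroblast markers 6 were tested. Col1a2 fell by 0.71 and 5 had no call. Among these, Col1a1 had a change of 0.65 and was called higher with named genes rescaled (adjusted p = 0.0403), median scaling (0.0421) and quantile normalization (0.0422). Fbn1 had a change of 0.20 (adjusted p = 0.0354 with named genes rescaled) and Postn one of 0.11. Their sums of 42.8 and 34.1 FPKM in shLuci and 50.4 and 38.4 FPKM in shTex10 overlapped.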

How the data were processed

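Poly(A) RNA of 4 libraries was read as 100-bp single ends, per the labels. Build mm9, Cufflinks 2.1.1, TopHat2 2.0.10 and Bowtie2 2.1.0 are listed in the submitters' processing notes. Their roles, the annotation and strand handling: not given in the sources used here. FPKM were deposited by the authors per library, without pooling, so counting error is unknown. FPKM divides by mapped fragments, so abundant features shift all values.

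Rows sharing a name were summed (23311 named rows, 22739 genes), and 7329 unnamed rows stayed out of the test. Genes with a mean of at least 1 FPKM entered a model of log2(FPKM + 1) in limma 3.58.1 (R 4.3.3; eBayes, trend, no block), with Benjamini-Hochberg adjustment and a threshold of 0.05, a fit tested on simulated data. The members and 12 gene lists, members included, were chosen with earlier results of these data known. Named were the members, Tex10, up to 4 genes of smallest p per list and the 6 genes nearest the members' median. Relatives (blastn 2.17.0, at least 300 aligned bases and 75% identity), neighbours within 100 kb and their named genes were chosen after values were seen, as was TAATCC. Alternatives were other pseudocounts, filters, scalings, eBayes settings, a replicate block, the highest row per name and leaving out each library.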

Additional observations from a re-analysis of the deposited data

How the results depend on the processing

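The 7 rising genes of the 8 were called higher under every alternative in which they were tested. Under a mean of at least 5 FPKM Arg2 and Zfp352 were not tested, and 5 of 6 genes were called. Arg2 had the highest adjusted p of the 7 over all alternatives, 0.00679. Changes ran from 2.77 to 3.43 for Tdpoz4, 1.99 to 2.70 for Zfp352, 1.68 to 2.25 for Dux and 1.30 to 1.66 for Arg2. Leaving out 1 library gave 7 calls each time, with 5419 to 5733 calls over all genes, but 1 arm is then a lone library assumed to vary like the other group.

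Scaling moved the calls over all genes. The 6129 calls, 38.3% of them higher, became 5170 with 63.2% higher (3269 higher, 1901 lower) after rescaling to the same sum over named genes, and 901 with 73.5% higher (662 higher, 239 lower) after rescaling over all rows. The median of all genes was then 0.06 and -0.13. The cause was not tested. Eif1a changed sign without passing the test, to 0.015 with median scaling, 0.24 with quantile normalization and 0.18 with named genes rescaled, and ran from -0.162 to 0.064 with 1 library left out. Dppa4 likewise became 0.041, 0.26 and 0.20, and ran from -0.091 to 0.046 with 1 library left out. Vti1b became 0.12 with quantile normalization and 0.13 with named genes rescaled, and Gcc2 ran from -0.10 to 0.23 with 1 library left out. Among other genes that did not pass the test, Usp26 became 0.0011 with median scaling and 0.12 with named genes rescaled, and with 1 library left out it ran from -0.15 to 0.026. Pramel6 became 0.080 with named genes rescaled and ran from -0.20 to 0.018. Pramel7 became -0.0049 with quantile normalization and ran from -0.010 to 0.13. Zfp600 became -0.0085 with the highest row per name and ran from -0.13 to 0.17. Postn became -0.067 with quantile normalization and ran from -0.0057 to 0.22, and Sox2 became 0.080 with quantile normalization. With all rows rescaled 33 named genes lost their call, none of them among the 8.

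The labels number the replicates 1 and 2 in both groups, but nothing says that equal numbers share a culture. Differences between replicates 1 and 2 correlated across genes between the groups at 0.33, with only 2 pairs. With the replicate block 8919 genes were called, and 7 of the 8 genes as before. Col1a1, Mael, Pigh and Sox2 then passed the test, and 27 repressors and 15 scanning genes were lower. A read estimate could be made for 7 of the 8 genes, Dux being the one without. Among these 7, Zfp352 and Tdpoz4 had the fewest reads in their lowest library, and counting intervals cannot be given from FPKM.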
